A study of Mus musculus with 11 samples.

Results

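CXC chemokines are small secreted proteins that draw leukocytes along a concentration gradient, and their receptors are G protein-coupled receptors on the leukocyte surface. The proteins CXCL1, CXCL2, CXCL3 and CXCL5 carry the ELR motif, bind CXCR2 and attract neutrophils, and their genes are known to be switched on by NF-kB downstream of IL-1, TNF and Toll-like receptors. CXCL9 and CXCL10 lack that motif, are induced by interferons and attract T cells and NK cells. In the mouse, CXCR1 and CXCR2 are found mainly on neutrophils, while CXCR4 is the receptor of CXCL12 and is carried by many leukocytes and stromal cells. On the ocular surface, both arms are known from dry eye models, where corneal epithelial cells can secrete these ligands.

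The 9 genes of this family whose values are described here, 6 ligands and 3 receptors, were chosen by name from the 248 genes that the mouse Inflammation panel of NanoString measured in all. NanoString counts color-coded probes on single RNA molecules without amplification. All mice were female C57BL/6 under desiccating stress for 5 days, a dry eye model in which scopolamine blocks tear secretion and a draft of dry air passes over the cage. They received eye drops of the vehicle PBS (3 samples), of 10 µM pan, a small molecule agonist of all Trk neurotrophin receptors (4 samples), or of 10 µM C1, a small molecule agonist of TrkC (4 samples). The vehicle-treated mice were stressed too, and non-stressed corneas were not analysed here, so each difference is between stressed corneas. The labels give an age of 3 months for every sample, but a second age label places all vehicle samples and the first 3 pan replicates at 2 to 3 months, and puts pan replicate 4 together with every C1 sample at 22 to 24 months. The study's methods give the age of its mice in weeks, a range that ends short of 3 months, and name no aged group. The 22 to 24 months of the second label go against them, and the 3 months of the first label do not match them exactly either. Which label holds could not be settled here. If the second label holds, the C1 against vehicle comparison cannot be told apart from age. How many mice stand behind a sample of this assay is not given in the sources used here, so p-values measure only the spread between these samples. Samples that had failed the study's quality control were left out by the authors.

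Each value is a normalized count, the number of times a probe was counted divided by a factor from the housekeeping genes of the same sample. The probe counts behind the values were recovered from their steps, and the totals over 248 genes were 91955 to 133098 in the vehicle samples, 64156 to 646446 in the pan samples and 165828 to 525997 in the C1 samples. Every C1 total was above every vehicle total, so C1 against vehicle cannot be told apart from depth either. A single probe count equalled 0.315 normalized counts in the deepest sample, pan replicate 4, but 3.25 in pan replicate 1, and no sample had a gene under 1 count. Whether counts of 0 were written as 1 is not given in the sources used here, so a value of 1 probe count may stand for 0 or 1. The corneal epithelial label could not be checked by its own markers, since 0 keratin genes and no Pax6 probe were among the genes. Of the 7 macrophage marker genes, 6 had a mean over the 11 samples above 13.8 normalized counts, the highest mean of any background gene described next, and of the 4 T cell marker genes, 0 did. The summed macrophage level was 186 to 293 normalized counts in the vehicle samples, 144 to 209 in the pan samples and 243 to 330 in the C1 samples.

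Most of the CXC genes lay near the level a probe shows without its transcript. That level was taken from 11 genes of liver, heart, kidney, gut or mast cell growth, such as Crp, C9 and Myl2, which the corneal epithelium is not known to use. The highest of these 11 background genes reached 16.0 to 32.3 normalized counts in the vehicle samples, 9.75 to 19.5 in the pan samples and 15.5 to 20.6 in the C1 samples. Of the 99 CXC values, 17 were above the highest background gene of their own sample, and 30 rested on 3 probe counts or fewer. Cxcl1 exceeded it in 8 of 11 samples and Cxcr4 in 6, Cxcl2 did so in 2 and Cxcr1 in 1. Cxcl3, Cxcl5, Cxcl9, Cxcl10 and Cxcr2 did so in 0 samples, so that they were not detectable above background. In pan replicate 4, the deepest sample, these genes rested on 15 to 29 probe counts and were still under it.

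The 6 ligand genes lie on chromosome 5 and the 3 receptor genes on chromosome 1. Along chromosome 5, RefSeq lists the protein-coding genes Cxcl5, Ppbp, Pf4, Cxcl3, Cxcl15, Cxcl1 and Cxcl2 in this order as direct neighbours, with Cxcl9 and Cxcl10 further along and only Art3 between them. RefSeq promoter windows of build GRCm38.p6, from 250 bases before to 50 bases after the transcription start, were found for 8 of the 9 genes, all but Cxcl5. Printed here are the 150 bases before the start of Cxcl1 and Cxcl2, the ligands whose values stood highest with pan, and of their neighbour Cxcl3, whose values did not. Capitals mark matches on either strand to the letters GGGNNNNNCC, a loose pattern of the NF-kB site, where overlapping matches are joined. The stretches are chr5:90891095-90891244 for Cxcl1, chr5:90903749-90903898 for Cxcl2 and chr5:90785951-90786100 for Cxcl3, all on the plus strand.
Cxcl1: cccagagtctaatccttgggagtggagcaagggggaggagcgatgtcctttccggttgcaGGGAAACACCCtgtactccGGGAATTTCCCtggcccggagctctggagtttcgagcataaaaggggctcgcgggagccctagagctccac
Cxcl2: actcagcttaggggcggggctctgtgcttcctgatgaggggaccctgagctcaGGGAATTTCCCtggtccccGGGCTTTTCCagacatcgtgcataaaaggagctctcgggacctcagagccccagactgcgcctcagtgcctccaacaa
Cxcl3: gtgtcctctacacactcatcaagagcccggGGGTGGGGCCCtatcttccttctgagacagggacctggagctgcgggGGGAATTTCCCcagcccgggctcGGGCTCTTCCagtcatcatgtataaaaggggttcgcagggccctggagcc

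All 3 promoters held the same 11 letters, GGGAATTTCCC, which began 71 bases before the start in Cxcl1, 97 in Cxcl2 and 73 in Cxcl3. This run was picked after the matches were seen. It stood in 14 of the 32851 RefSeq windows of this length, or 0.0426%, and in none of the other 5 member windows. The loose pattern GGGNNNNNCC was common, with 50.8% of all windows and 7 of the 8 member windows, all but Cxcr4, holding it. A loose pattern of the interferon-stimulated response element, GAAANNGAAA, was in 3.44% of all windows and in 1 member window, that of Cxcl10, 213 bases before the start. The pattern TTCNNNGAA, a loose gamma-activated site, was in 8.3% of all windows and in 0 member windows. A match describes the letters only, and no binding was measured.

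**Figure D1:**
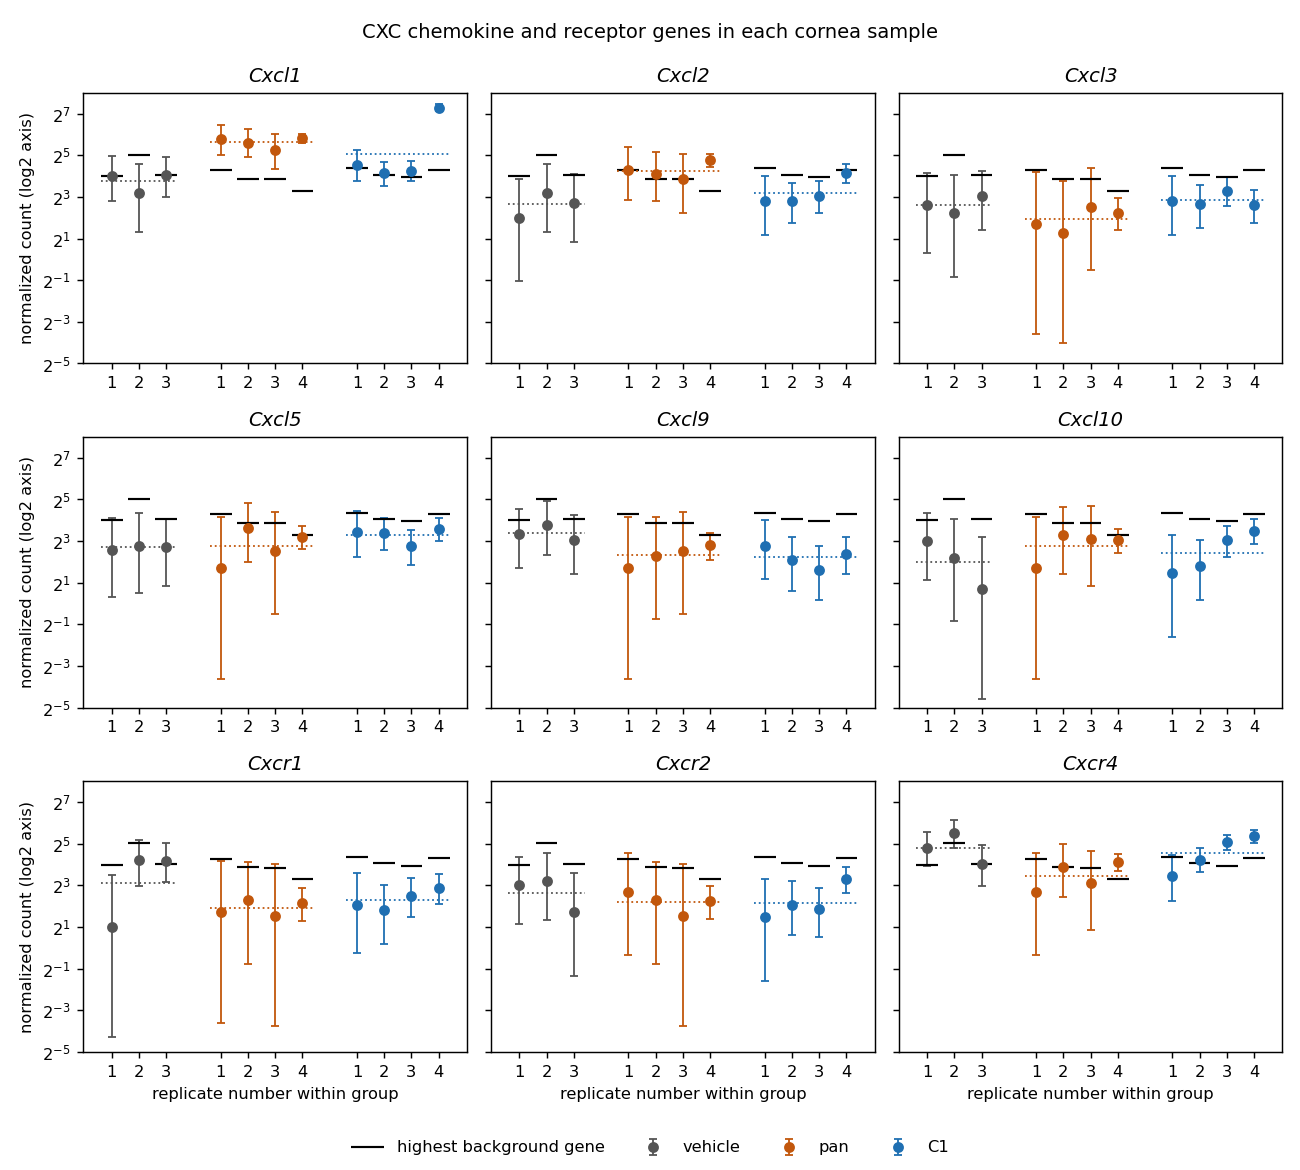
Normalized counts of the 9 CXC genes (log2 axis) in each sample by replicate number within group, with vehicle in grey, pan in orange and C1 in blue. Bars are exact 95% Poisson intervals of the probe counts, dotted lines are group means of log2 values and short black lines are the highest background gene of that sample. Cxcl1 stands above the black line in all 4 pan and all 4 C1 samples, most of all at 156 in C1 replicate 4, while Cxcl3, Cxcl5, Cxcl9, Cxcl10 and Cxcr2 stay at or under it.

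Treatment with pan was compared with vehicle first. Cxcl1 rose with pan, by 1.86 on the log2 scale as deposited, and it was the only one of the 9 CXC genes that passed the test. Its neighbour Cxcl2 lay higher by 1.61 without passing, and the other ligands of Cxcr2 did not stand apart. Cxcl9, Cxcr1 and Cxcr4 had lower means with pan and did not pass either. No vehicle value of Cxcl1 or Cxcl2 exceeded the highest background gene of its sample, so the sizes of these differences depend on how background is treated.

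Cxcl1, a neutrophil-attracting ligand of Cxcr2, measured 16.0, 9.22 and 16.4 normalized counts in vehicle replicates 1 to 3. With pan it measured 55.2, 48.8, 37.7 and 56.3 in replicates 1 to 4. All 4 pan samples were above all vehicle samples, and they lay close to one another although pan replicate 4 rested on 179 probe counts and the others on 13 to 20. The vehicle values rested on 4 to 10 probe counts and did not exceed the highest background gene of their sample. The pan-treated mean was 49.5 ± 8.55 (SD, n = 4) and the vehicle-treated mean 13.9 ± 4.05 (SD, n = 3). In log2 terms the fold change was 1.86 (standard error of 0.29, adjusted p = 0.0181 by limma over all 248 genes), and the two-sided exact permutation test gave p = 0.0571, the smallest value that 4 samples against 3 allow. Over 10 alternatives the log2 fold change ran from 1.29 with a floor of 20 normalized counts to 3.55 with background subtracted, and 4 of them kept the call, with adjusted p up to 0.217 by limma. Background subtraction lost it (adjusted p = 0.171). The call was not stable to single samples either: without one of vehicle replicates 2 or 3 or pan replicates 1, 2 or 4 the adjusted p was above 0.05, reaching 0.0705, while the log2 fold change stayed between 1.59 and 2.01.

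Cxcl2, which shares the receptor Cxcr2, measured 4.0, 9.22 and 6.58 normalized counts with vehicle and 19.5, 17.1, 14.5 and 27.1 with pan. Again each pan value was above each vehicle value. Only 2 to 7 probe counts lay behind these values outside pan replicate 4, where there were 86. Against the background, 2 of the 4 pan values exceeded the highest background gene of their sample and 0 of the vehicle values did. Corneas treated with pan had a mean of 19.5 ± 5.42 (SD, n = 4), those treated with vehicle one of 6.60 ± 2.61 (SD, n = 3). At 1.61 on the log2 scale (standard error 0.35), the fold change missed the adjusted threshold (adjusted p = 0.0753 by limma, exact permutation p = 0.0571). It was 0.11 with the floor of 20 and 3.59, with the threshold passed, after background subtraction.

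The remaining ligands of Cxcr2 were within the background in every sample. Cxcl3 measured 6.01, 4.61 and 8.22 normalized counts with vehicle and 3.25, 2.44, 5.80 and 4.72 with pan, where 3 of the values were 1 or 2 probe counts. The groups overlapped, and the log2 fold change was -0.67 (95% interval -1.50 to 0.16, adjusted p = 0.500 by limma). For Cxcl5, vehicle values of 6.01 to 6.91 lay inside the pan range of 3.25 to 12.2, with a log2 fold change of 0.060 (95% interval -0.95 to 1.07).

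Among the interferon-induced ligands, Cxcl9 measured 10.0, 13.8 and 8.22 normalized counts with vehicle and 3.25, 4.88, 5.80 and 6.92 with pan. All pan values were below all vehicle values, and none of these 7 values exceeded the highest background gene. On the log2 scale the fold change was -1.06 (standard error of 0.33, adjusted p = 0.210 by limma, exact permutation p = 0.0571). The background genes moved the same way, with a median log2 fold change of -0.71, and 10 of the 11 had a negative one. After subtraction of the background genes' mean from each sample, 3 of the 4 pan samples and all 3 vehicle samples were at the floor for Cxcl9, and its log2 fold change was 0.019. Cxcl10 measured 8.01, 4.61 and 1.64 with vehicle and 3.25, 9.76, 8.69 and 8.18 with pan, so that the groups overlapped (log2 fold change 0.81, adjusted p = 0.594 by limma). The Cxcl10 value was 0.18 without vehicle replicate 3 and 1.32 without vehicle replicate 1.

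Of the receptors, Cxcr4 stood above background most often. It measured 28.0, 46.1 and 16.4 normalized counts with vehicle and 6.49, 14.6, 8.69 and 17.3 with pan. Vehicle replicate 3 lay within the range of the pan samples, and the other vehicle samples lay above it. The pan values rested on 2, 6, 3 and 55 probe counts, and 1 of the 4 exceeded the highest background gene. At -1.34 on the log2 scale (standard error of 0.46), the Cxcr4 difference missed the adjusted threshold (adjusted p = 0.245 by limma, exact permutation p = 0.114). The 11 background genes had a median log2 fold change of -0.71 with pan, and 10 of them had a negative one. The part of background in the Cxcr4 and macrophage differences was not tested. In bulk samples, fewer cells that carry Cxcr4 and less Cxcr4 RNA per cell cannot be told apart. The summed macrophage level ran lower with pan too, with overlapping groups (given above), 0 of its 7 genes called and a median log2 fold change of -0.46, and its part in the Cxcr4 values was not tested.

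The neutrophil receptors were sparse. Cxcr1 split the vehicle samples, with 2.00 normalized counts (1 probe count) in replicate 1 but 18.4 and 18.1 in replicates 2 and 3, whereas the pan samples measured 3.25, 4.88, 2.90 and 4.41. These pan values rested on 1, 2, 1 and 14 probe counts. Vehicle replicates 2 and 3 were above all pan samples. Vehicle replicate 1 was below them, but with the same 1 probe count as pan replicates 1 and 3. Over all samples the log2 fold change of Cxcr1 was -1.21 (standard error of 0.75, adjusted p = 0.550 by limma), and without vehicle replicate 1 it was -2.28 with an adjusted p of 0.0143 by limma. Cxcr2, the receptor of Cxcl1 and Cxcl2, measured 3.29 to 9.22 in the vehicle samples and 2.90 to 6.49 in the pan samples (log2 fold change -0.45, 95% interval -1.44 to 0.54). Of 4 other neutrophil and leukocyte markers chosen by name, Itgb2 and Ltb4r1 had a mean over the 11 samples above 13.8 normalized counts. Mmp9 and Tnfsf14 did not, and 0 of the 4 were called with pan. Of their log2 fold changes 3 were negative, with a median of -0.79, and Tnfsf14 lay lower at an unadjusted p under 0.05 by limma.

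Set against the whole panel, 1 of the 9 CXC genes was called with pan, where 2.02% of all genes were (0.806% higher and 1.21% lower). At an unadjusted p under 0.05 there were 4 of 9, Cxcl1 and Cxcl2 with higher and Cxcl9 and Cxcr4 with lower values, against 12.5% of all genes. Groups did not overlap for 2 CXC genes with higher values, Cxcl1 and Cxcl2, against 2.42% of all genes, and for 1 with lower values, Cxcl9, against 8.47%. The median log2 fold change of the 9 was -0.45, and that of all 248 genes was -0.20. Centring each sample on its own median moved all pan differences up by 0.23 on the log2 scale, and Cxcl2 then passed beside Cxcl1.

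**Figure D2:**
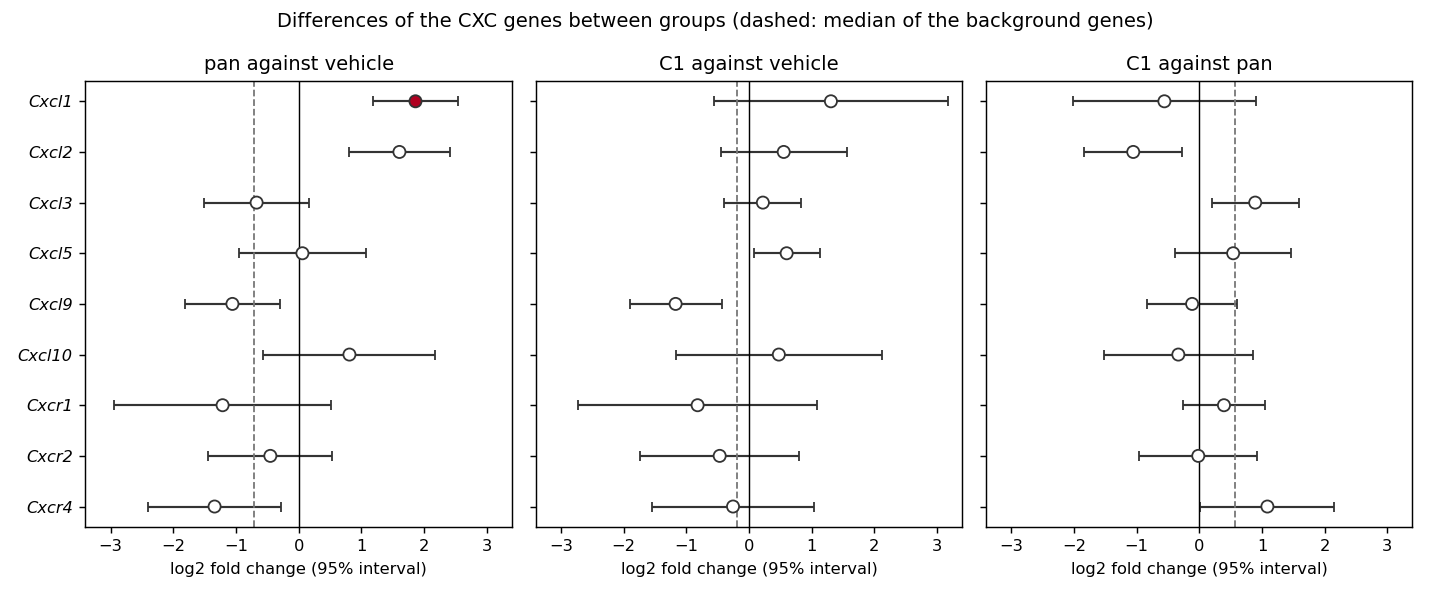
Log2 fold changes of the 9 CXC genes with 95% intervals from limma, for pan against vehicle, C1 against vehicle and C1 against pan. The filled point marks the only adjusted p under 0.05 (Cxcl1 with pan, 1.86) and the dashed lines mark the median of the 11 background genes (-0.71, -0.19 and 0.57).

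The known inducers of these ligands were described from lists chosen by name. Of 17 genes of IL-1, TNF, Toll-like receptor and NF-kB signalling, 1 rose with pan, 0 fell and 16 did not pass, and the median log2 fold change was -0.04. Over all 248 genes, 0.806% were called higher and 1.21% lower. The gene that rose was Tnfaip3, an NF-kB target whose product A20 restrains NF-kB, which had 1145 ± 226 normalized counts after pan (SD, n = 4) and 313 ± 36.3 after vehicle (SD, n = 3) (log2 fold change 1.86, adjusted p = 0.00846 by limma). Il1a, an epithelial alarmin that induces Cxcl1, measured 481 to 1347 normalized counts in the pan samples and 285 to 414 in the vehicle samples, so that the groups did not overlap, but it did not pass (log2 fold change 1.26, adjusted p = 0.239 by limma). Groups did not overlap with higher pan values for 2 of the 17 genes, against 2.42% of all genes. Tnf overlapped between the groups, with 42.2 to 284 against 31.2 to 62.2 normalized counts. Log2 fold changes were -0.066 for Nfkb1 and 0.30 for Rela, which encode subunits of NF-kB.

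For the interferon arm of Cxcl9 and Cxcl10, 18 genes were measured, of which 0 rose, 1 fell and 17 did not pass with pan, and the median log2 fold change was -0.16. Called lower were 1.21% of all genes. Log2 fold changes were negative for 14 of the 18 genes and for 173 of all 248. Groups did not overlap with lower pan values for 3 of the 18, against 8.47% of all genes. The gene that fell was Ifng, the T cell and NK cell cytokine that induces Cxcl9, which went from 15.6 ± 3.29 normalized counts (SD, n = 3) in vehicle-treated to 2.93 ± 0.359 (SD, n = 4) in pan-treated corneas (log2 fold change -2.40, adjusted p = 0.00246 by limma). Its lowest and highest pan values, 2.44 and 3.25, were 1 probe count in pan replicates 2 and 1. As 1 count may stand for 0, the SD and the fold change of Ifng rest on this lower limit. Like Cxcl9, Ifng lay in the range of the background genes, of which Mbl2 fell too (log2 fold change -1.59, adjusted p = 0.0305 by limma). With normalized counts under 20 set to 20, Ifng was no longer called. Mx2 lay lower at an unadjusted p under 0.05 by limma without passing. It measured 17.1 ± 3.41 normalized counts with vehicle (SD, n = 3) and 8.28 ± 5.90 with pan (SD, n = 4). The interferon-regulated transcription factor gene Irf1, which lay far above background, had a log2 fold change of -0.10.

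**Figure D3:**
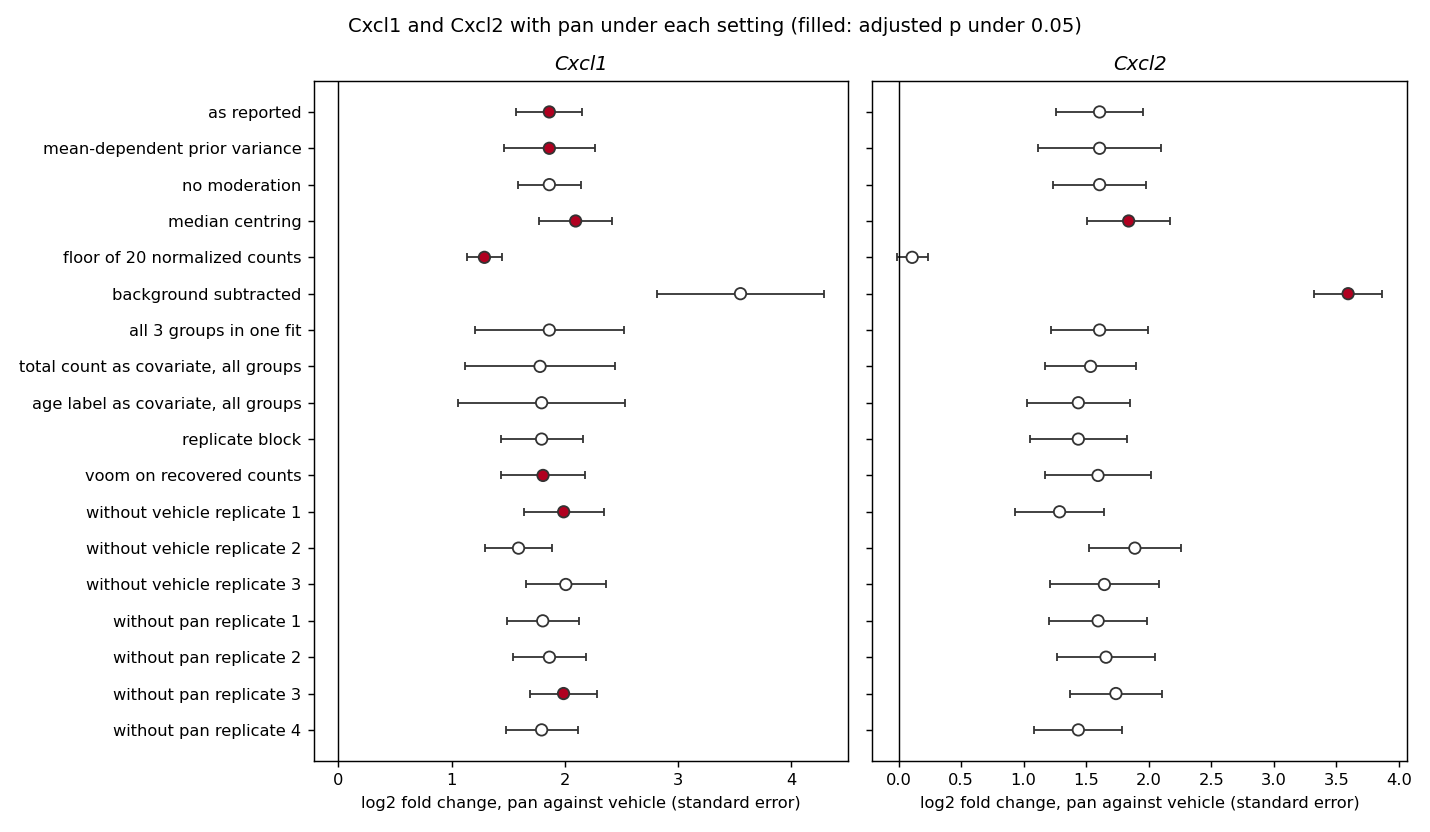
Log2 fold changes of Cxcl1 and Cxcl2 for pan against vehicle (points, with standard errors) as reported and under each alternative setting, including the omission of each sample; filled points have an adjusted p under 0.05. All values are above 0; those of Cxcl1 run from 1.29 with a floor of 20 normalized counts to 3.55 with background subtracted, and those of Cxcl2 from 0.11 to 3.59 under the same settings.

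C1 was compared with the same 3 vehicle samples, so this comparison is not independent of the one with pan. No CXC gene passed the test with C1. Cxcl1 was higher in all 4 C1 samples than in any vehicle sample, but by very unequal amounts, and Cxcl9 was lower in all 4. The second age label and the depth differ between these groups, as given above.

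With C1, Cxcl1 measured 23.4, 17.5, 19.1 and 156 normalized counts in replicates 1 to 4, from 17, 25, 37 and 362 probe counts. Replicates 1 to 3 lay just above the highest vehicle value of 16.4, and replicate 4 stood far above every other sample of the series. The mean was 54.1 ± 68.2 (SD, n = 4), so that the SD was larger than the mean. Its difference from vehicle was 1.31 on the log2 scale (standard error of 0.79, adjusted p = 0.567 by limma, exact permutation p = 0.0571), and without C1 replicate 4 it was 0.56. The same sample was also the highest C1 sample for Cxcl2, Cxcl5, Cxcl10, Cxcr1, Cxcr2 and Cxcr4, but not for Cxcl3 or Cxcl9. It exceeded the mean of the other C1 samples by 2.98 on the log2 scale for Cxcl1, by 1.52 for Cxcr2, by 1.38 for Cxcl10 and by 1.27 for Cxcl2. That sample also had the highest background median of the C1 samples, 12.5 against 6.88 to 9.11 normalized counts. Its Cxcr2 and Cxcl10 values, 9.94 and 11.2, lay under this median.

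Cxcl2 measured 6.88, 7.01, 8.26 and 17.7 normalized counts with C1. Replicates 1 to 3 lay inside the vehicle range of 4.0 to 9.22 and replicate 4 above it (log2 fold change 0.55, 95% interval -0.45 to 1.56, adjusted p = 0.728 by limma). Cxcl3 ranged from 6.05 to 9.80 with C1 and overlapped with vehicle (log2 fold change 0.22, 95% interval -0.39 to 0.83). Cxcl5, made by epithelial cells in several tissues, measured 11.01, 10.52, 6.71 and 12.1 with C1, 3 of them above the highest vehicle value of 6.91. That difference, 0.60 on the log2 scale with a standard error of 0.22, missed the adjusted threshold (adjusted p = 0.436 by limma, exact permutation p = 0.114), and none of its values exceeded the background.

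The interferon-induced Cxcl9 measured 6.88, 4.21, 3.096 and 5.18 normalized counts with C1, all below the lowest vehicle value of 8.22. Here the log2 fold change was -1.17 (standard error of 0.31, adjusted p = 0.252 by limma, exact permutation p = 0.0571). All of these values were under the highest background gene, and the 11 background genes had a median log2 fold change of -0.19 with C1. After their mean was subtracted, all vehicle and C1 samples were at the floor for Cxcl9, which left no difference to measure. Cxcl10 spread from 2.751 to 11.2 in the C1 samples and from 1.64 to 8.01 in the vehicle samples (log2 fold change 0.48, 95% interval -1.16 to 2.12).

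Cxcr4 measured 11.01, 18.9, 34.1 and 41.0 normalized counts with C1, which spans most of the vehicle range of 16.4 to 46.1 (log2 fold change -0.25, 95% interval -1.54 to 1.03). Cxcr1 ranged from 3.51 to 7.34 and Cxcr2 from 2.751 to 9.94 with C1, with log2 fold changes of -0.82 and -0.47. The Cxcr1 value was -1.88 without vehicle replicate 1 and -0.28 without vehicle replicate 2. Neither receptor passed the test, and both overlapped with vehicle.

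In this comparison 0 of the 9 CXC genes were called by limma, as were 0% of all genes. At an unadjusted p under 0.05 there were 2 of 9, Cxcl5 with higher and Cxcl9 with lower values, against 10.5% of all genes. Groups did not overlap for 1 CXC gene with higher values, Cxcl1, against 6.05% of all genes, and for 1 with lower values, Cxcl9, against 4.03%. The median of the 9 log2 fold changes was 0.22, against -0.02 for all genes. In both pathway lists 0 genes were called by limma. At an unadjusted p under 0.05, Il1a (log2 fold change 0.57) and Oasl1 (0.59) lay higher, and Csf2 (-0.95) and Ifng (-1.54) lay lower. The medians were 0.06 for the 17 genes of the NF-kB list and -0.08 for the 18 genes of the interferon list.

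Both agonists were given at the same dose for the same number of days, so C1 and pan were also compared directly, as the only pair of compounds. No CXC gene passed the test between them. Cxcl2 lay lower with C1 than with pan, Cxcl3 and Cxcr4 lay higher, and for the remaining members the intervals of the difference included 0. The second age label also divides these groups, except for pan replicate 4, and so does depth, with every C1 total above those of pan replicates 1 to 3.

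For Cxcl1 the log2 difference, C1 minus pan, was -0.56 (95% interval -2.02 to 0.91, adjusted p = 0.676 by limma). C1 replicates 1 to 3 were below all pan samples and replicate 4 was above them, and without it the difference was -1.30 (adjusted p = 0.0610 by limma). The Cxcl2 difference was -1.05 (95% interval -1.83 to -0.27, adjusted p = 0.256 by limma, exact permutation p = 0.0857), with C1 replicates 1 to 3 again below all pan samples and replicate 4 within their range. Under other settings it ran from -2.98 with background subtracted to -0.11 with the floor of 20, without a call. An interval this wide for Cxcl1 does not show that the compounds act alike.

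Cxcl3 was higher in all 4 C1 samples, at 6.05 to 9.80 normalized counts, than in the pan samples, at 2.44 to 5.80. The log2 difference was 0.89 (95% interval 0.20 to 1.58, adjusted p = 0.256 by limma), and the exact permutation p of 0.0286 was the smallest that 4 samples against 4 allow. The background genes lay higher with C1 as well, 11 of 11 with a median log2 difference of 0.57, and with their mean subtracted all but 1 of these 8 samples were at the floor for Cxcl3. Cxcr4 measured 11.01 to 41.0 in the C1 samples and 6.49 to 17.3 in the pan samples, a log2 difference of 1.09 (95% interval 0.017 to 2.16, adjusted p = 0.313 by limma). The summed macrophage level was higher in every C1 sample than in every pan sample. Its 7 genes had a median log2 difference of 0.77 with 0 called, and C1qa, C1qb and Mrc1 had an unadjusted p under 0.05 by limma. Their part in the Cxcr4 values was not tested.

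The differences were 0.54 (95% interval -0.38 to 1.46) for Cxcl5, -0.11 (-0.83 to 0.61) for Cxcl9 and -0.33 (-1.52 to 0.85) for Cxcl10. For the neutrophil receptors they were 0.39 (-0.26 to 1.05) for Cxcr1 and -0.015 (-0.95 to 0.92) for Cxcr2. A level 2-fold higher with C1 lies within the intervals of Cxcl5 and Cxcr1, and one 2-fold lower within that of Cxcl10. Between the compounds 0 of the 9 CXC genes were called, against 0.403% of all genes. At an unadjusted p under 0.05 there were 3 of 9, against 15.3% of all genes, and groups did not overlap for 1 with higher values (7.66% of all genes) and 0 with lower values (0.403%). The median of the 9 differences was -0.015, against 0.23 for all genes. In the pathway lists 0 genes were called by limma. Tnfaip3 (-1.002) and Csf2 (-0.91) lay lower with C1 and Tlr2 (0.78), Ifng (0.86) and Oasl1 (0.71) higher at an unadjusted p under 0.05.

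Cxcl1 and Cxcr4, the members with a mean level above every background gene, were also set beside the rest of the panel by how alike their values ran over the 11 samples. Likeness was the root mean square difference of log2 values after each gene was centred on its mean. Over the 247 other genes its median was 1.19 for Cxcl1. The nearest genes to Cxcl1 were Tnfaip3 at 0.58, Cxcl2 at 0.71 and Ptger4, the gene of the prostaglandin E2 receptor EP4, at 0.86. Those of Cxcr4 were the complement factor gene Cfb at 0.30, the protease gene Mmp9 at 0.37 and the cytokine gene Il11 at 0.38, against a median of 0.87. These are descriptions over 11 samples that differ in depth and treatment, and the part of either in the likeness was not tested. The levels of Cfb, Mmp9 and Il11 were 6.49 to 35.0, 2.90 to 18.4 and 6.49 to 34.6 normalized counts, close to the background.

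**Figure D4:**
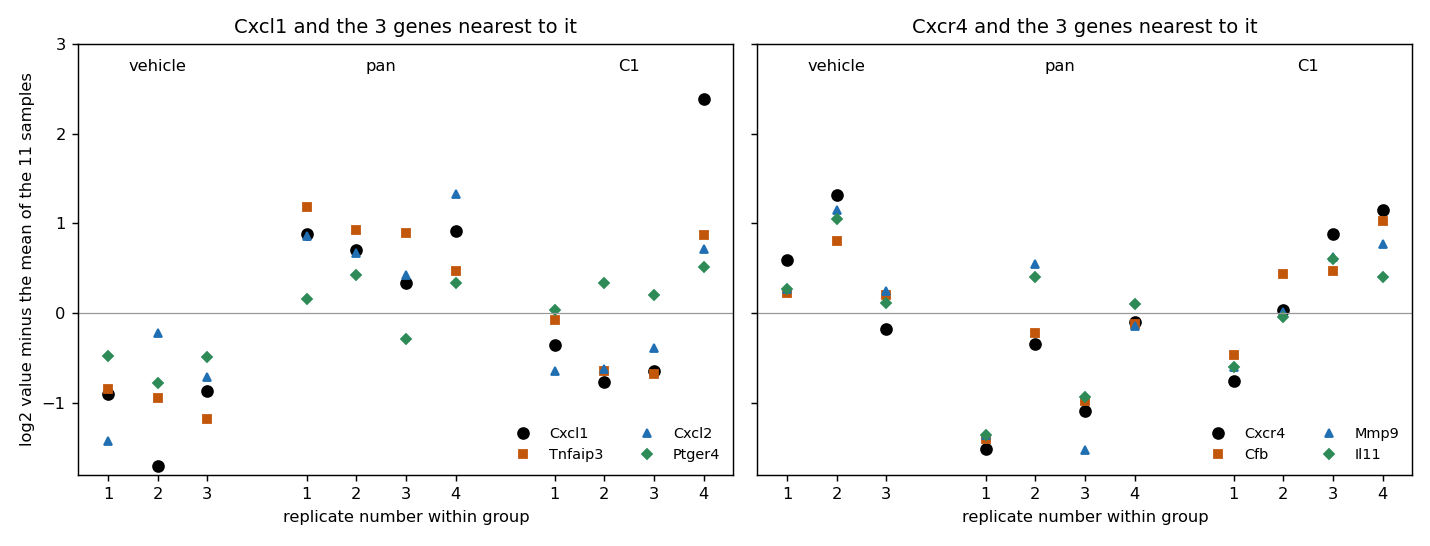
Log2 values of Cxcl1 (left) and Cxcr4 (right) and of the 3 genes nearest to each, minus each gene's mean over the 11 samples, by group and replicate number. Cxcl1, Tnfaip3 and Cxcl2 are below their means in all vehicle samples and above them in all pan samples and in C1 replicate 4.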

How the data were processed

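NanoString mouse Inflammation panel values were available for 11 corneal samples in 3 groups. The authors divided the counts of each sample by the geometric mean of housekeeping probes (6 genes are named) in ROSALIND and deposited log2 normalized counts of 248 genes in 2 tables, one for each agonist beside vehicle. The vehicle values were identical in both (0 values differed). The tables also hold the authors' own fold changes and p-values, which were not used. Other sample columns numbered 0. The housekeeping values were not used here, so the scaling could not be repeated.

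Within a sample, every normalized count was a multiple of 1 fixed step to within 0.01 counts, which gave back the probe counts. Total counts ranged 10.1-fold, and pan replicate 4 had 6.38 times the next pan total. Poisson intervals (exact, 95%) cover counting error only. Gene IDs matched RefSeq for 247 genes.

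Each pair of groups was fitted on the deposited log2 values of all 248 genes without covariate, filter or pseudocount by limma 3.58.1 (lmFit, eBayes) in R 4.3.3, with Benjamini-Hochberg adjustment over all genes and a threshold of 0.05. Genes called are those under it. Two-sided exact permutation tests (the smaller tail doubled) and the other steps used Python 3.11.15, numpy 2.4.6, scipy 1.17.1, pandas 2.3.3 and matplotlib 3.10.9. Promoter windows and gene order are those of RefSeq. Protein sequences were not used here. This model was tested on simulated data with known changes. The simulation drew normal log2 values without count steps, a floor or differences in depth, so it does not cover genes of few counts. All 9 CXC genes are named, and so are the 3 genes nearest to each member whose mean is above every background gene, and genes of the pathway lists with an unadjusted p under 0.05 or needed to describe the list. The members and lists were chosen with earlier results of these data known. Alternatives were a mean-dependent prior, no moderation, median centring, a filter at a mean log2 of 5, a floor of 20 normalized counts, background subtraction (floor of 1), all 3 groups in one fit, the log2 total count or the second age label as covariate, the replicate number as a block, voom weights, and the omission of each sample.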

Additional observations from a re-analysis of the deposited data

Results flagged for a closer look

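In 18 groups of 4 samples (9 CXC genes in 2 treated groups), the highest and the lowest sample were set against the others by the gap to the nearest sample over the whole range, and 2 exceeded the 95% critical value of Dixon's test. Chance alone marks about 1 in 20 such groups. Cxcl1 in C1 replicate 4 had a log2 value of 7.29, against 4.13 to 4.55 in the other C1 samples, and rested on 362 probe counts. Cxcl10 in pan replicate 1 had a log2 value of 1.70, against 3.03 to 3.29 in the other pan samples, and rested on 1 probe count.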

How the results depend on the processing

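With pan, the count of CXC genes called by limma was 1 (Cxcl1) and moved with the processing: it was 0 without moderation, 0 with all 3 groups in one fit, 0 with the total count or the second age label as covariate and 0 after the filter at a mean log2 of 5, which no CXC gene passed. It was 2 (Cxcl1 and Cxcl2) with median centring and still 1 with background subtracted, but there Cxcl2 in place of Cxcl1. Leaving out single samples gave 0 to 2, with Cxcl1 called without vehicle replicate 1 or pan replicate 3 only, and Cxcr1 called beside it in the first case. Cxcl1 was called in 4 of its 10 other alternatives and Cxcl2 in 2 of 10, and both kept their direction in all. For C1 against vehicle or pan, 0 CXC genes were called under every alternative and omission. The replicate number as a block, which drops pan or C1 replicate 4 against vehicle, left 0 CXC genes called with pan. It gave no CXC call for C1 either. The numbers did not pair the samples, since correlations of same-numbered deviations were -0.17 to 0.26 and few samples correlated best with their own number (2 of 6 samples for pan and vehicle, 1 of 6 for C1 and vehicle, 4 of 8 for C1 and pan). The NF-kB list had 2 genes called with pan (Il1a and Tnfaip3) under either covariate and 0 to 1 when samples were left out (0 without vehicle replicate 2 or 3). The interferon list had 0 among genes of higher level or with the floor of 20, and 1 (Oasl1) with C1 under the mean-dependent prior. Log2 fold changes that turned were small and none was called: with background subtracted, Cxcl3 (0.019) and Cxcl9 (0.019) with pan and Cxcl3 (-0.019) and Cxcl5 (-0.33) for C1 against pan; with the age label, Cxcl5 (-0.084) with pan and Cxcl2 (-0.13) and Cxcl3 (-0.18) with C1; with the block, Cxcl5 (-0.084) with pan; with the total count, Cxcl10 (-0.033) with C1; and with median centring, Cxcr1 (-0.018) for C1 against pan. Leaving out samples turned Cxcl5 with pan (-0.22 to 0.41), Cxcl10 (-0.15 to 0.99) and Cxcr4 (-0.63 to 0.11) with C1, and Cxcl9 (-0.32 to 0.082) and Cxcr2 (-0.39 to 0.22) for C1 against pan. The causes were not tested. The filter gave no value for 26 results, the floor for 19 and background subtraction for 7, where genes were dropped or all samples lay at the limit. Median centring removed differences between group medians of -0.23 (pan minus vehicle), 0.18 (C1 minus vehicle) and 0.41 (C1 minus pan). Depth and background both limit these genes: 30 of 99 values rested on 3 counts or fewer, and 17 exceeded the highest background gene.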
